A study of Mus musculus with 6 samples.

Results

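Described here are 10 genes of glucose uptake and glycolysis in mouse: the glucose transporter Slc2a1, the hexokinase Hk2, the enzymes Aldoa, Tpi1, Gapdh, Pgk1, Eno1, Pkm and Ldha, and the transcription factor subunit Hif1a. They were found through the RefSeq accession that the array files give for each probe, which named 20 of 56605 probes as theirs, and every one of the 10 genes, of 22911 on the array with a symbol, had at least 1 probe. They were measured in C5aR+ LysoDCs, lysozyme-expressing phagocytes of the Peyer's patch that carry the receptor for C5a. Sorted cells from CD11c-enriched Peyer's patch preparations were kept in medium with CSF-1 and CFS-2 (so spelled in the labels). In 3 samples they were given 100 nM recombinant C5a for 3 h, and in 3 samples they received 0 nM C5a (untreated). The mouse strain, age and the culture time of the untreated cells are not given in the sources used here, nor whether the numbered samples came from separate animals or cultures. Spread among the samples of a group may therefore be technical, and a p-value reflects no more than that spread.

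Glycolysis splits glucose into pyruvate, yielding ATP without oxygen, and lactate dehydrogenase turns pyruvate into lactate while restoring NAD+. Glucose enters through transporters such as GLUT1, the product of Slc2a1, and hexokinase traps it inside the cell by phosphorylation. HIF-1alpha, the product of Hif1a, is a transcription factor subunit that is stabilised at low oxygen and in activated phagocytes and that activates genes of glucose uptake and of most glycolytic steps. Activated dendritic cells and macrophages are known for raised glycolysis. C5a, a peptide cut from complement protein C5, attracts and activates phagocytes through a G protein-coupled receptor.

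One form of the core bound by HIF-1 is ACGTG, and its other form, GCGTG, was not counted here. The upstream sequences of the members are shown for those with the largest positive differences (Hk2, Slc2a1 and Hif1a) and for Ldha and Pgk1, which hardly differed. Each runs 5′ to 3′ over the 250 bases before a RefSeq start site in build GRCm38.p6, with every ACGTG on either strand in capitals (CACGT is the same letters on the other strand, and CACGTG holds both).

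Hk2 (chr6:82774455-82774704, minus strand): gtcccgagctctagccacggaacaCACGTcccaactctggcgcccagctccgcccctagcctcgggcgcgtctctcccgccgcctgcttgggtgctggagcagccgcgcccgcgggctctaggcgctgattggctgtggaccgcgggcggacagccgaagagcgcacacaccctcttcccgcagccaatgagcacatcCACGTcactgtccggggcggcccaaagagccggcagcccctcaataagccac

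Slc2a1 (chr4:119108495-119108744, plus strand): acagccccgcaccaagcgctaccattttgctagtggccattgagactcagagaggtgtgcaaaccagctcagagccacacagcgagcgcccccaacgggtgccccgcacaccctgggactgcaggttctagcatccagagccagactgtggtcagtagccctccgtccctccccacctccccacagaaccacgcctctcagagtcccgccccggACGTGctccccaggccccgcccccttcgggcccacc

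Hif1a (chr12:73907617-73907866, plus strand): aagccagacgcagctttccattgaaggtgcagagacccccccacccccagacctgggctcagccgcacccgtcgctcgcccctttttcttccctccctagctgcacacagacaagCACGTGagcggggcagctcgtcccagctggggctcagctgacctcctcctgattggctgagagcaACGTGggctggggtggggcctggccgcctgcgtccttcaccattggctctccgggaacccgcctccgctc

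Ldha (chr7:46845554-46845803, plus strand): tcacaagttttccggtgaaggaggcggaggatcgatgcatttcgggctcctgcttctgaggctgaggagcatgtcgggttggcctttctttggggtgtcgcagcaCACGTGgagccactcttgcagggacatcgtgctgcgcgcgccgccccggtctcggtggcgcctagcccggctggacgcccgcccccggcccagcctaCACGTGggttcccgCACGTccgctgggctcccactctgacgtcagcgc

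Pgk1 (chrX:106186850-106187099, plus strand): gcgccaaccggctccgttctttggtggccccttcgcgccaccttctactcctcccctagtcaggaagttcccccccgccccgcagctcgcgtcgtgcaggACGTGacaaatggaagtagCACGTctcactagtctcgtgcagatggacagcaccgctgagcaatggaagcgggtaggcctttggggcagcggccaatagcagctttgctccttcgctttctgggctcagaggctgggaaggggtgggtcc

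The letters ACGTG occurred on either strand in 8 of the 16 upstream windows listed for the 10 genes, and in 16.6% of 32851 such windows in the whole table. Windows of a gene can overlap, and the Aldoa matches are the same site in overlapping windows. By gene, 7 of 10 had a match in at least 1 window, against 18.5% of 27025 genes. Eno1, Gapdh and Tpi1 had no ACGTG in their windows, although GCGTG stands in windows of Eno1 and Gapdh. The window of Ldha shown held 2 CACGTG and 1 further match, that of Hif1a held 1 CACGTG and 1 further match, and those of Hk2 and Pgk1 held 2 separate matches each. In Slc2a1 the single match began 36 bases before the start. Matches were thus present both in members with larger and in members with smaller differences between C5a and untreated cells. A match is a description of the letters and not a measured binding site.

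The arrays were of uneven brightness. Of 56605 probes, 3668 to 6651 were well above background on the C5a arrays and 2728 to 6959 on the untreated arrays, and 4488 genes were tested, each with a probe that cleared background on 3 or more arrays. Of these 4488, 3276 have a symbol and the rest are single probes without a gene name, counted as genes in every share of all genes below. A level is a log2 signal minus the 75th percentile of the same array, taken over probes that cleared background on every array, and a difference is C5a minus untreated with n = 3 per group. In RNA from a cell population, fewer expressing cells and less RNA per cell cannot be told apart. Of 14 phagocyte markers 12 cleared background on 3 arrays or more, among them Lyz1, Lyz2, Itgax, Csf1r and H2-Ab1. Cx3cr1 and Mertk were on none. C5ar1, which encodes the C5a receptor by which the cells are named, was well above background on 2 C5a arrays and 1 untreated array. The summed level of these markers was 5.79 to 6.13 in C5a samples and 6.13 to 6.42 in untreated samples. Markers of T cells, epithelium, neutrophils, mast cells, stroma and erythroid cells were well above background on no array. Of 6 B cell markers, 1 cleared background on 3 arrays or more (Cd79b, on 3), with a summed level of the list of -3.11 to -1.65 in C5a and -2.81 to -1.45 in untreated samples. Of plasma cell markers Xbp1, and of markers of NK and innate lymphoid cells Il7r, was well above background on all 6 arrays. The summed plasma cell level was -1.34 to -0.40 in C5a and -1.30 to -0.42 in untreated samples, and that of NK and innate lymphoid cells was -2.93 to -1.51 in C5a and -2.50 to -1.24 in untreated samples. Any part of these differences in the results was not tested.

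No member passed the test. In limma with Benjamini-Hochberg adjustment over all genes, 0 of 10 members had an adjusted p under 0.05 (each at 0.999), as did 0 of 4488 genes, which is 0.00%. Of the 10 differences 8 were positive, where 54.9% of all genes had a positive difference (10 members and 86.8% of all genes with scaling on all probes, 5 members and 22.3% of all genes with normexp background correction), and the median of the members was 0.04, the same as the 0.04 of all genes. The count of 8 rested on single samples. It was 4 without C5a 1 and 5 without untreated 3, with member medians of -0.029 and -0.034. The members fell into a few genes of glucose entry and its regulator, with differences of 0.49 to 1.09, and the enzymes of the later steps, with differences from -0.18 to 0.13. Well above background on all 6 arrays were 7 of the 10 members, against 48.6% of the genes tested. The division into entry and later steps was made after the values were seen and was not tested. Of the entry genes, Hk2 and Slc2a1 were each well above background on 1 of 3 untreated arrays. Tested genes of glucose entry outside the members had smaller differences, at 0.27 for Hk1, 0.21 for Hk3 and 0.25 for Slc2a6. Samples with the same number in the labels deviated from their group means together, so differences within numbers are given beside the group values. In both groups number 2 was also the brightest array and number 3 the dimmest.

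**Figure D1:**
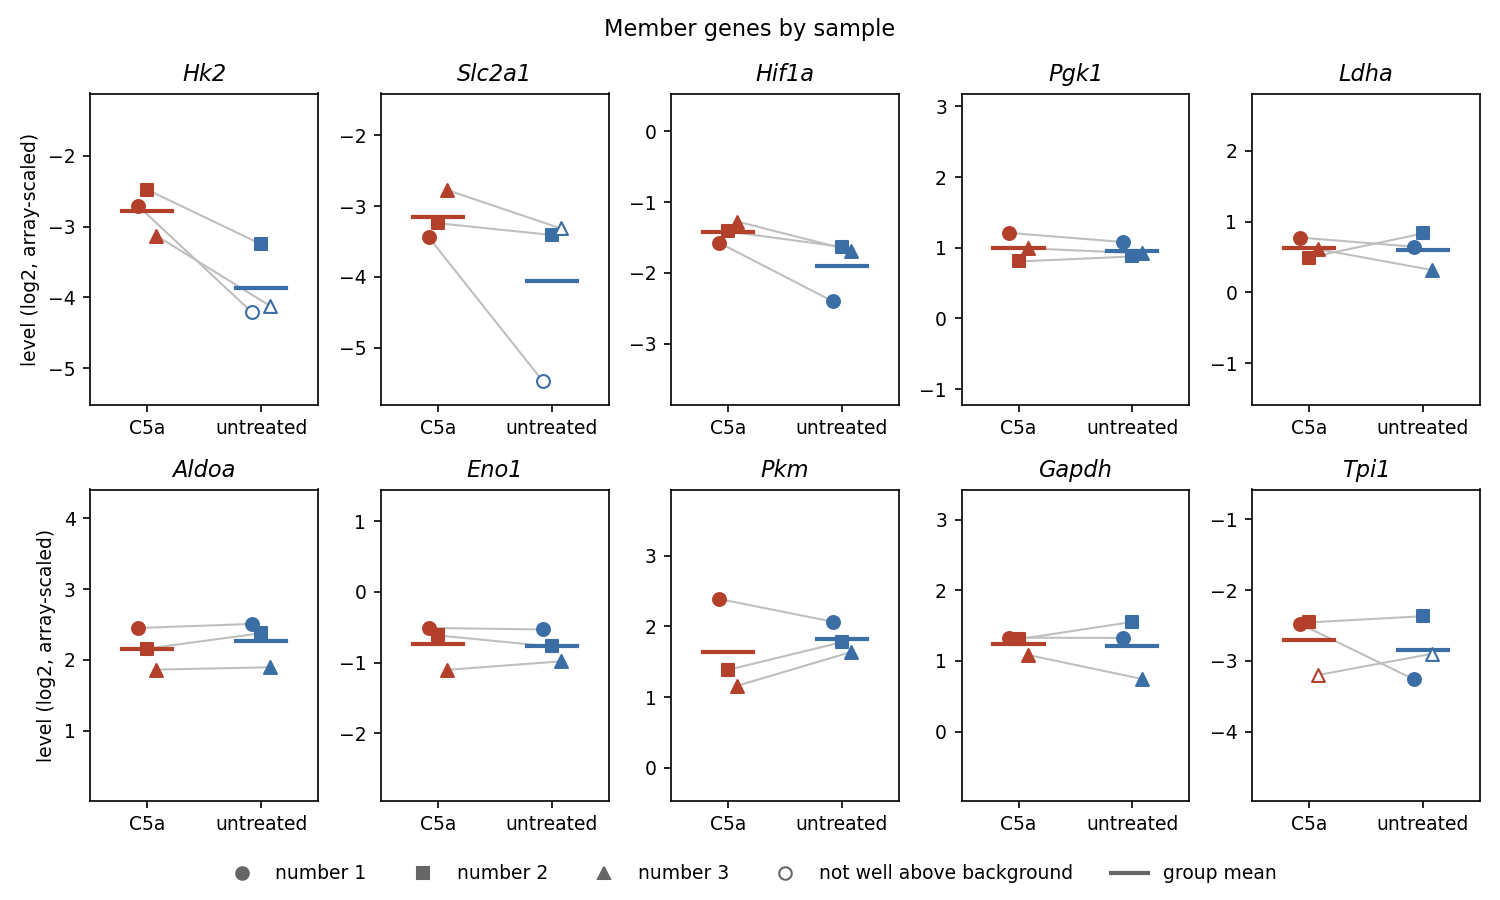
Levels of the 10 member genes (log2 signal minus the array's own 75th percentile, y axis) in C5a samples (left, red) and untreated samples (right, blue), each panel spanning the same number of log2 units. Symbols mark the replicate number, grey lines join samples of one number, open symbols are signals not well above background, and bars are group means. All 3 lines slope down to the right for Hk2, Slc2a1 and Hif1a, while those of Pgk1, Gapdh and Eno1 stay near level or cross.

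Hk2 encodes hexokinase 2, the inducible enzyme that phosphorylates glucose on entry. Its level (probe A_51_P204080) was -2.71, -2.48 and -3.13 in C5a 1 to 3, against -4.21, -3.25 and -4.12 in untreated 1 to 3. All C5a samples were above all untreated samples, and the closest values were those of C5a 3 and untreated 2. The means were -2.77 ± 0.33 with C5a and -3.86 ± 0.53 in untreated cells (SD, n = 3 each), a log2 difference of 1.09 (SE 0.36, 95% interval 0.24 to 1.94). In limma its unadjusted p was 0.0185 and its adjusted p was 0.999. It was the only member with an unadjusted p under 0.05, which 2.36% of all genes had (1.60% with a positive difference). Hk2 passed the filter on dim probes through its C5a arrays, so nothing is read from its p beside that share, and no fold is given because 2 of the 3 untreated values were not well above background. Within numbers, the differences were 1.505, 0.77 and 0.99.

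The Hk2 signal was close to the limit of detection. It was well above background on 3 of 3 C5a arrays and on 1 of 3 untreated arrays, a pattern shared by 7.04% of the genes tested, while 0.267% had the mirror pattern of 1 C5a and 3 untreated arrays. The processed signals were 38.8, 67.6 and 17.6 in C5a samples and 8.80, 48.3 and 6.24 in untreated samples. The 75th-percentile signals of the same arrays were 253.7, 377.3 and 153.8 with C5a and 163.4, 459.5 and 108.7 in untreated samples, so untreated 3 was the dimmest array. The part of array brightness in the result was not tested. In untreated 1 and 3 the Hk2 level lay under the lowest level of any probe well above background there, -3.67 and -3.32. With values under that limit raised to it, a setting chosen after seeing the data, the difference was 0.64 (SE 0.28, limma unadjusted p = 0.04995), with all C5a samples still above all untreated samples.

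Slc2a1, the gene of the glucose transporter GLUT1, had levels of -3.44, -3.24 and -2.77 in C5a 1 to 3, against -5.47, -3.41 and -3.31 in untreated 1 to 3 (probe A_51_P464738). The groups overlapped, since C5a 1 was below untreated 2 and 3, and untreated 1 stood far below the other samples. Like Hk2, it was well above background on 3 C5a arrays and 1 untreated array. The difference was 0.91 (SE 0.60, 95% interval -0.49 to 2.32, limma unadjusted p = 0.168, adjusted p = 0.999). It rested on untreated 1: without that sample it was 0.21, and with undetected values raised to the limit it was 0.31. Within numbers, the differences were 2.03, 0.17 and 0.54, so the sign was the same in each pair and the size was not.

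Hif1a was well above background on all 6 arrays (probe A_55_P2936147). Its levels were -1.57, -1.41 and -1.27 in C5a 1 to 3, against -2.40, -1.63 and -1.68 in untreated 1 to 3. The groups did not overlap, with C5a 1 and untreated 2 nearly equal. Hk2 and Hif1a were thus the 2 of 10 members whose C5a samples all lay above all untreated samples, a pattern that 3.39% of all genes had (5.70% in either direction). Hk2 passed the filter on dim probes through its C5a arrays, and the members had been chosen with earlier results on these arrays known. Nothing is therefore read from this count beside that share. The mean of Hif1a was -1.42 ± 0.15 with C5a and -1.91 ± 0.43 in untreated cells. Its difference was 0.49 (SE 0.31, 95% interval -0.24 to 1.21, limma unadjusted p = 0.157, adjusted p = 0.999). Untreated 1 again held the lowest value, and without it the difference was 0.24. The transcript level of Hif1a does not report the stability of its protein, which is where oxygen acts.

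For these 3 of the 10 members every same-numbered pair had a positive difference. Among all genes 14.4% did, and the members had been chosen with earlier results on these arrays known. The 3 are grouped by their large positive differences, and Hk2 and Slc2a1 passed the filter through their C5a arrays. Nothing is therefore read from their pairs beside that share. Number 1 gave the largest difference for each of the 3, and untreated 1 was the lowest sample for all of them. Untreated 1 had 8 of the 10 members well above background, untreated 3 had 7, C5a 3 had 9 and the other arrays had all 10.

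The enzymes of the later steps differed little, and all but Tpi1 were well above background on all 6 arrays. Aldoa encodes aldolase A, which cleaves fructose bisphosphate into trioses. Its level was 2.45, 2.16 and 1.86 in C5a 1 to 3, against 2.51, 2.38 and 1.89 in untreated 1 to 3, a difference of -0.10 (SE 0.30, 95% interval -0.81 to 0.61). Same-numbered samples lay within 0.22 of each other and the groups overlapped almost fully. It was the single member with a negative difference in every pair (-0.06, -0.22 and -0.03), which 10.8% of all genes had. The mean of the 2 samples of a number spanned 0.60 over the 3 numbers, more than the difference with C5a. The same held for 9 of the 10 members and 86.5% of all genes.

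Tpi1, the triose phosphate isomerase that interconverts the trioses, was well above background on 2 of 3 C5a arrays and 2 of 3 untreated arrays. Its level was -2.48, -2.46 and -3.20 with C5a, against -3.26, -2.37 and -2.90 in untreated cells (probe A_51_P433824). The groups overlapped, and the difference of 0.13 (SE 0.36) was 0.78 in number 1 and -0.09 and -0.30 in the other numbers.

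Gapdh encodes glyceraldehyde-3-phosphate dehydrogenase, the step that reduces NAD+, and is widely used as a reference transcript. Its brightest probe, A_55_P2774298, read 1.33, 1.31 and 1.09 in C5a 1 to 3, against 1.33, 1.55 and 0.75 in untreated 1 to 3. The C5a values lay inside the range of the untreated ones. The difference was 0.03 (SE 0.30, 95% interval -0.68 to 0.74). Pgk1, phosphoglycerate kinase, which makes the first ATP of the pathway, read 1.21, 0.81 and 0.99 with C5a against 1.08, 0.88 and 0.92 in untreated cells. Its difference of 0.04 (SE 0.26) had the smallest SE of the 10 members, with a 95% interval of -0.56 to 0.64, or 0.679-fold to 1.56-fold.

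Eno1, the enolase that forms phosphoenolpyruvate, had levels of -0.51, -0.61 and -1.10 in C5a samples and -0.53, -0.77 and -0.98 in untreated samples, a difference of 0.02 (SE 0.29). The number-3 samples were lowest in both groups. Pkm, the muscle-type pyruvate kinase gene, whose spliced forms PKM1 and PKM2 these probes were not assigned to, had 2.39, 1.39 and 1.16 with C5a against 2.07, 1.78 and 1.64 in untreated cells. C5a 1 was the highest sample and C5a 2 and 3 the lowest, so the spread with C5a (SD 0.65) exceeded that in untreated cells (SD 0.22). The difference was -0.18 (SE 0.38, 95% interval -1.08 to 0.71). It was -0.55 without C5a 1.

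Ldha, the lactate dehydrogenase A chain, had levels of 0.77, 0.49 and 0.61 in C5a 1 to 3, against 0.64, 0.83 and 0.32 in untreated 1 to 3. The C5a samples lay within the untreated range, and the difference was 0.03 (SE 0.27, 95% interval -0.60 to 0.66). For 6 members, namely Pgk1, Ldha, Aldoa, Eno1, Gapdh and Tpi1, the whole 95% interval lay within 1 log2 unit of 0, which held for 37.8% of all genes. In the reported scaling, a doubling or halving of these transcripts lies outside those intervals, whereas smaller shifts could not be resolved with 3 arrays per group. With scaling on all probes the SE of each of the 6 was 0.84, and without the filter on dim probes it was 0.77. With the slide row as covariate the SE ran from 0.37 (Pgk1) to 0.53 (Tpi1). The reading on doubling and halving therefore does not carry over to those settings. Tpi1 was also not well above background on every array. A p that missed the threshold does not show that the groups were alike.

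**Figure D2:**
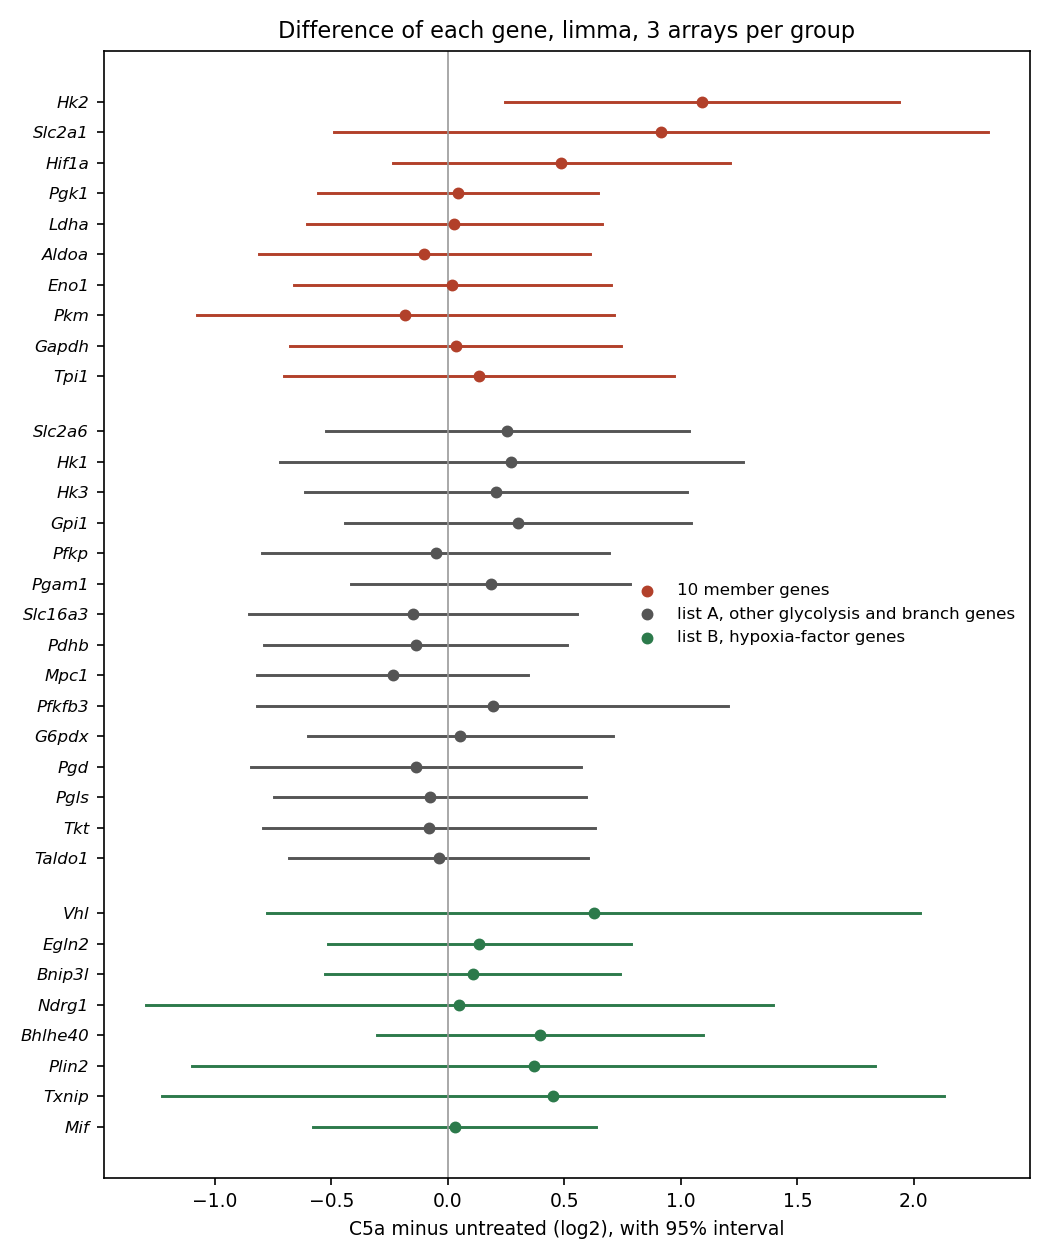
Difference between C5a and untreated cells (x axis, log2) with 95% intervals from limma for the 10 members (red), the other measured genes of glycolysis and its branches (grey) and the measured hypoxia-factor genes (green). Of all genes drawn, the interval of Hk2 alone lies to one side of 0, at 0.24 to 1.94 before adjustment for the number of genes tested.

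Of the 10 genes, 5 had more than 1 probe, and these did not all give the same reading. Gapdh had 6 probes, each well above background on 4 arrays or more. The 5 dimmer ones differed by -0.43 to -0.11, all negative, where the brightest gave 0.03. For A_55_P1965725 the C5a levels of -2.41, -2.39 and -2.46 lay below the untreated levels of -2.13, -1.58 and -2.26. A_55_P1994258 also had groups that did not overlap, at -0.37. All 6 Gapdh probes had their most negative or only negative pair difference in number 2, from -0.82 to -0.25. Gapdh has many processed pseudogenes, and whether a probe also binds their transcripts was not tested.

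The second kept probe of Pkm, A_55_P2738982, was well above background on 2 C5a and 2 untreated arrays and differed by -0.28, the same sign as the brighter one. The second probes of Ldha and Eno1 and 1 further probe of Tpi1 were well above background on no array. The remaining Tpi1 probe was above background on 1 C5a and 1 untreated array. These 4 probes did not pass the filter and their differences are not read, although those of the Eno1 probe lay at -1.81 with all C5a samples below all untreated ones.

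**Figure D3:**
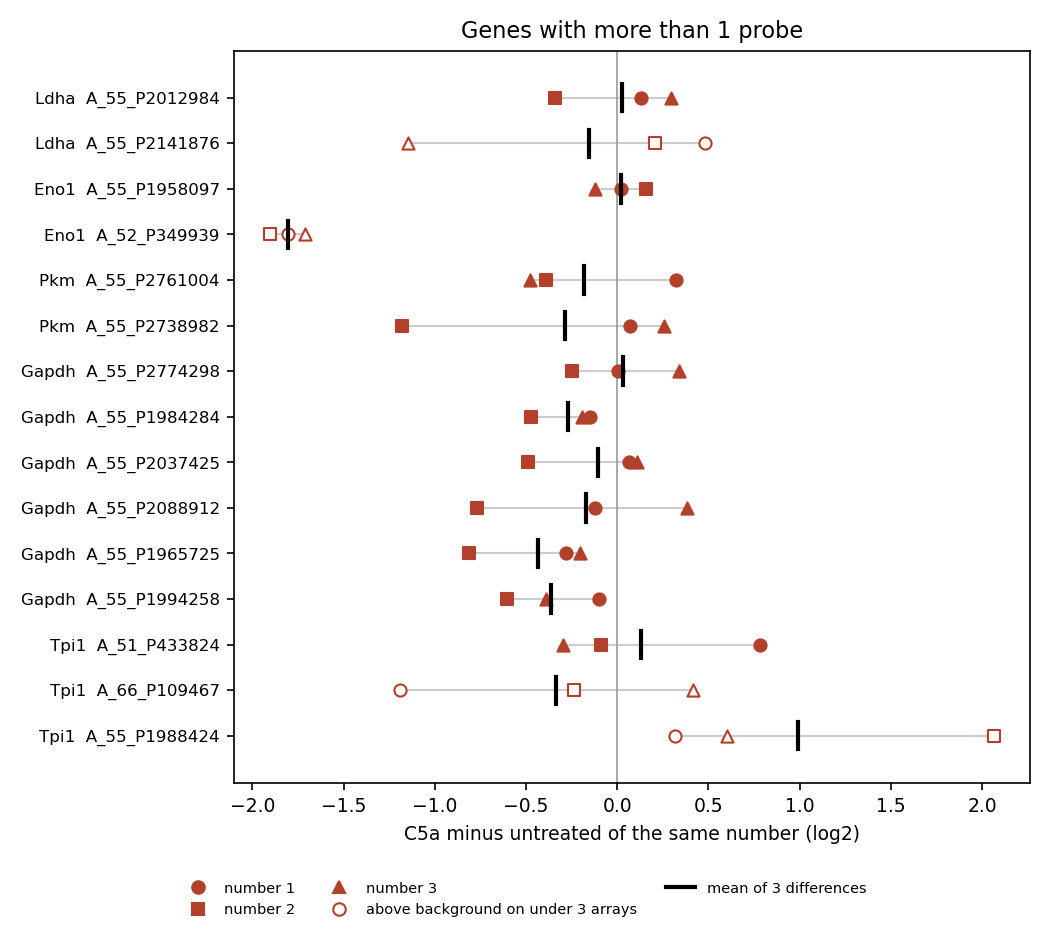
Differences between C5a and untreated samples of the same number (x axis, log2) for every probe of the 5 genes with more than 1 probe. Symbols mark the number, open symbols are probes well above background on under 3 arrays, and black ticks are means, which for the Gapdh probes run from -0.43 to 0.03.

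The other genes of the pathway gave no call either. Of 50 further genes of glycolysis, its branches and pyruvate use, 15 were tested, 31 were well above background on no array and 4 on 1 or 2 arrays. In limma with Benjamini-Hochberg adjustment 0 of the 15 passed in either direction, with 7 positive and 8 negative differences and a median of -0.04. Several isozymes were well above background on no array and were not tested: the transporter gene Slc2a3, the muscle and liver phosphofructokinases Pfkm and Pfkl, the aldolase gene Aldoc, and Eno2 and Eno3. A further phosphofructokinase gene, Pfkp, and the hexokinase gene Hk1 are named as exceptions to the choice by level. Each was well above background on 5 arrays and was tested, with differences of -0.05 (SE 0.32) and 0.27 (SE 0.42). Hk3, another hexokinase, differed by 0.21 (SE 0.35) and the hexose transporter gene Slc2a6 by 0.25 (SE 0.33). Gpi1, glucose-6-phosphate isomerase, differed by 0.30 (SE 0.32), with C5a levels of -0.42, -0.48 and -0.49 against -1.20, -0.24 and -0.85 in untreated cells. That difference was 0.085 without untreated 1 and 0.0079 with the mean of its kept probes.

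Pfkfb3, which makes the fructose bisphosphate that activates phosphofructokinase, differed by 0.19 (SE 0.43), and Pgam1, phosphoglycerate mutase, by 0.18 (SE 0.25). Slc16a3, the lactate exporter MCT4, differed by -0.15 (SE 0.30). Pdhb, a subunit of pyruvate dehydrogenase, differed by -0.14 (SE 0.28). The tested genes of the pentose phosphate branch had differences smaller than their SE. G6pdx stood at 0.05 (SE 0.28), Pgls at -0.08 (SE 0.28), Pgd at -0.14 (SE 0.30) and Tkt at -0.08 (SE 0.30). Taldo1 stood at -0.04 (SE 0.27), and at 0.25 with the mean of its kept probes. Rpia and Rpe of the same branch were well above background on no array. Mpc1, a subunit of the mitochondrial pyruvate carrier, is named after its values were seen, as the 1 gene of the 15 with groups that did not overlap. It read -2.93, -2.90 and -3.16 with C5a against -2.88, -2.70 and -2.70 in untreated cells, a difference of -0.24 (SE 0.25), where 2.32% of all genes had all C5a samples below all untreated ones.

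Of 30 genes that regulate HIF or are its targets outside glycolysis, 8 were tested and 0 passed limma with Benjamini-Hochberg adjustment. Of the rest, 18 were well above background on no array, 3 on too few arrays and 1 had no probe. All 8 differences were positive, where 54.9% of all genes had a positive one, with a median of 0.25 against 0.04 for all genes, but with normexp background correction Mif, Egln2, Bnip3l and Txnip were negative, on a scale where 22.3% of all genes were positive. None had groups that did not overlap. Vhl, which targets HIF-1alpha for degradation, differed by 0.63 (SE 0.59), but by 0.097 without untreated 3 and by 0.18 with undetected values raised to the detection limit. It was well above background on 2 C5a and 2 untreated arrays. Egln2, a prolyl hydroxylase that marks it, differed by 0.13 (SE 0.28). Among targets, Bhlhe40, a transcriptional repressor, differed by 0.39 (SE 0.30), Plin2, a lipid droplet protein, by 0.37 (SE 0.62), and the mitophagy receptor gene Bnip3l by 0.11 (SE 0.27). Txnip, which restrains glucose uptake, differed by 0.45 (SE 0.71), but by -0.24 without untreated 3 and by 0.047 with undetected values raised to the detection limit. Like Vhl, Txnip was well above background on 2 C5a and 2 untreated arrays. The stress-response gene Ndrg1 differed by 0.05 (SE 0.57) and Mif, a cytokine gene, by 0.03 (SE 0.26). Ndrg1 followed the sample number, with -1.02, -0.24 and 0.65 in C5a 1 to 3 against -1.23, 0.05 and 0.42 in untreated 1 to 3. Vegfa, Adm and P4ha1, widely used hypoxia targets, were well above background on no array, as were Arnt and Epas1.

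**Figure D4:**
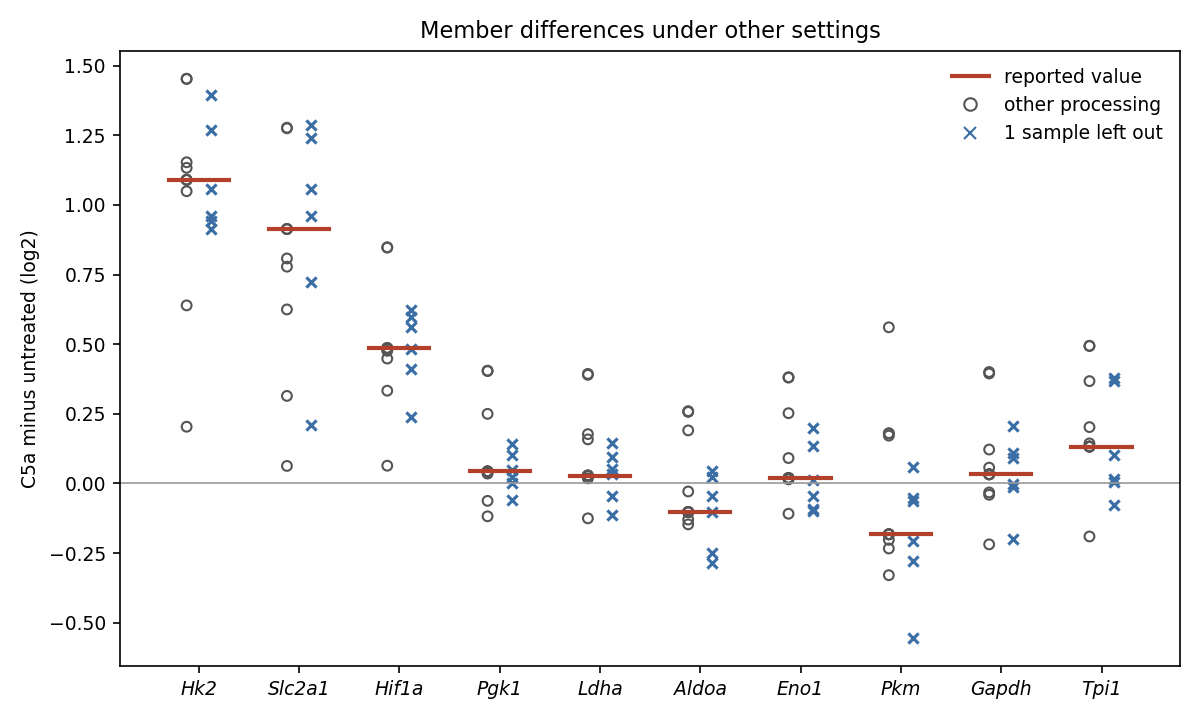
Difference between C5a and untreated cells (y axis, log2) for each member as reported (red bars), under other processing (open circles) and with 1 sample left out (blue crosses). Hk2, Slc2a1 and Hif1a stay above 0 in every setting drawn, down to 0.20, 0.06 and 0.06, while the other 7 members fall on both sides of 0.

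The differences of Hk2, Slc2a1 and Hif1a kept their sign under every alternative that gave them a value, 16, 16 and 17 in number. None passed limma's adjusted threshold in any. These counts do not measure firmness, since several alternatives could not turn a sign. Without the filter, with the mean of kept probes and with the replicate block, each of the 3 genes kept its reported difference. The 3 were also grouped by their large positive differences. The size of these differences depended on how background was handled. With normexp background correction they were 0.20, 0.06 and 0.06. On that scale the median of all genes was -0.12, against 0.04 as reported. Scaling on all probes instead of detected ones moved the median of all genes to 0.40, and the members with it: the 3 genes then stood at 1.45, 1.275 and 0.85, and all 10 members were positive, as were 86.8% of all genes. That scaling subtracts another constant per array, so it moves every gene alike and leaves the gaps between genes as they were. A shift upward can turn the sign of Aldoa and Pkm, whose differences were negative, and cannot turn that of Hk2, Slc2a1 or Hif1a.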

How the data were processed

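RNA of 6 samples was hybridised to 1-colour (Cy3) Agilent arrays of design 074809, 1 array per sample on 1 slide. The deposited scanner files hold spot intensity values and 0 or 1 flags made by Agilent Feature Extraction 10.10.1.1 (protocol GE1_1100_Jul11), background-subtracted within each array and not scaled between arrays, per the file headers. Log2 values fill the deposited series table. Its columns differ from one another as log2 processed signals do once an array's all-probe 75th percentile is taken off (100.0% of differences within 0.015), so scale and direction are known and the baseline per probe is not. Its column medians are 0.01, -0.02 and 0.22 for C5a 1 to 3 and 0.17, -0.08 and 0.18 for untreated 1 to 3.

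From these, spots of a probe were averaged as log2 processed signal without control spots and outlier marks. No spot was saturated. The 75th percentile was subtracted per array, taken over the 2371 probes that cleared background on all 6, since 48672 of 56605 probes were detected on none. Probes well above background on at least 3 arrays were kept, and the brightest kept probe stood for a gene. Accessions, without versions, were named through a RefSeq table of GRCm38.p6, which matched 32994 probes; the array design cites another build, so no coordinates of probes are given. Promoter sequences are from RefSeq (GRCm38.p6), matched by symbol for 10 of 10 genes.

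Groups were compared with limma 3.58.1 (R 4.3.3) over 4488 genes with Benjamini-Hochberg adjustment and a threshold of 0.05, C5a minus untreated. The fit was tested on simulated data whose shifts were larger than any member difference, so that test does not bear on smaller ones. The number of arrays limits the precision. Same-numbered samples correlated in their deviations from the group means (0.211, 0.269 and 0.384), each more than with any other number. The numbers were therefore taken as pairs, from the data and not from a stated design. In both groups number 2 was the brightest array and number 3 the dimmest (75th-percentile signals 377.3 and 153.8 with C5a, 459.5 and 108.7 in untreated samples). The part of brightness in these correlations was not tested. Members, gene lists and tests were chosen with earlier results of these data known. Named genes are the 10 members, up to 12 per companion list by mean level, and exceptions stated in the text. Alternatives covered scaling, background, filters, probe choice, pairing, slide row, array weights, the deposited table and each sample left out. The files have no mean spot signal, so normexp (offset 50) used the median signal.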

Additional observations from a re-analysis of the deposited data

How the results depend on the processing

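No gene passed limma in 16 of 17 alternatives, in which 26 to 214 genes had an unadjusted p under 0.05. Without the filter on dim probes limma called 47 genes, 9 higher and 38 lower with C5a, and no member was among them. With the replicate block 0 genes passed (lowest adjusted p 0.927, 191 genes at an unadjusted p under 0.05 against 106), and the block changed no call. The block lowered the SE of Hk2 to 0.25 (limma unadjusted p = 0.00799, adjusted p = 0.927). The pairs behind the block were taken from the data, and Hk2 passed the filter on dim probes through its C5a arrays. Nothing is read from this p or from those that follow. Over the 16 alternatives of Hk2 its limma unadjusted p ran from 0.00563 to 0.482. It was 0.482 with normexp, 0.156 without the filter, 0.0853 with scaling on all probes or with the deposited table, 0.0777 with the slide row, and 0.0694, 0.0609 and 0.0551 without C5a 2, untreated 1 and untreated 3. Requiring all 6 arrays above background leaves Hk2, Slc2a1 and Tpi1, among others, without a value. Dim signal limits what can be said of Hk2 and Slc2a1 in untreated cells.

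None of the differences below passed in any setting. Scaled on all probes, which subtracts another constant per array and so moved every gene alike (the median of all genes to 0.40, against 0.04), Aldoa was 0.26, Pkm 0.18, Taldo1 0.32, Pgd 0.22, Pgls 0.29, Slc16a3 0.21, Tkt 0.28, Pdhb 0.22 and Mpc1 0.12. The deposited series table, scaled in the same way, gave 0.26, 0.18, 0.32, 0.23, 0.29, 0.21, 0.28, 0.23 and 0.13 for the same genes. The cause of the sign changes that follow was not tested. The median of all genes was -0.12 with normexp and 0.14 with the slide row as covariate, against 0.04 as reported. It was 0.025 with array weights, 0.034 with the mean of kept probes and -0.052 with values raised to the detection limit. With normexp, Pgk1 was -0.12, Eno1 -0.11, Pkm 0.17, Gapdh -0.041, Tpi1 -0.19, Taldo1 0.016, Gpi1 -0.055, Pfkfb3 -0.10, Slc2a6 -0.041, Hk3 -0.038, G6pdx -0.15, Mif -0.0078, Egln2 -0.067, Bnip3l -0.12 and Txnip -0.0079. With the slide row as covariate, where row 1 held C5a 1 and all untreated samples and row 2 C5a samples alone, Aldoa was 0.19, Pkm 0.56, Taldo1 0.31, Pgd 0.18, Slc2a6 -0.013, Slc16a3 0.039, G6pdx -0.028, Ndrg1 -0.77, Mif -0.077 and Bnip3l -0.015. Hk2, Slc2a1 and Hif1a were 1.15, 0.62 and 0.33 there. With array weights, Pgk1 was -0.063, Ldha -0.13, Gapdh -0.032, Hk3 -0.0077, Tkt 0.011, Ndrg1 -0.0067 and Egln2 -0.053. With the mean of kept probes, Gapdh was -0.22 and Taldo1 0.25. With values raised to the detection limit, Bnip3l was -0.030.

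With each sample left out in turn, Pgk1 ran from -0.060 to 0.14, Ldha from -0.11 to 0.15, Aldoa from -0.29 to 0.045, Eno1 from -0.10 to 0.20, Pkm from -0.55 to 0.060, Gapdh from -0.20 to 0.20 and Tpi1 from -0.076 to 0.38. Hk2 ran from 0.91 to 1.396, Slc2a1 from 0.21 to 1.29 and Hif1a from 0.24 to 0.62. Of the other genes, Taldo1 ran from -0.21 to 0.051, Pgd from -0.30 to 0.039, Pgls from -0.22 to 0.047, Tkt from -0.26 to 0.095, Slc16a3 from -0.37 to 0.00095, Pdhb from -0.27 to 0.022, Hk3 from -0.091 to 0.37, Pfkfb3 from -0.24 to 0.49, G6pdx from -0.10 to 0.18, Mif from -0.085 to 0.13, Bnip3l from -0.035 to 0.25, Ndrg1 from -0.44 to 0.46, Vhl from 0.097 to 1.09, Gpi1 from 0.085 to 0.56, Plin2 from -0.19 to 0.83 and Txnip from -0.24 to 1.01.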

Other observations

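The 7 members well above background on all 6 arrays did not form one tight pattern. Over the 6 arrays their 21 pairwise Pearson correlations ran from -0.61 to 0.89, with a median of 0.41. Against the mean profile of the 7, which each of them helps to make, Aldoa stood at 0.89, Ldha at 0.82 and Hif1a at -0.22. Hk2 and Slc2a1, which are not in the profile, stood at 0.38 and -0.29. These are descriptions over arrays that share their slide, their scaling and their sample numbers. The 5 other genes most like the mean profile were Tmem59 (r = 0.995), Csnk1g2 (0.985), the complex I gene Ndufb10 (0.979), Hint1 (0.976) and the cytochrome c gene Cycs (0.976). Cycs read -0.41, -1.24 and -1.36 in C5a 1 to 3 against -1.13, -0.89 and -1.61 in untreated 1 to 3, so the shared pattern did not separate C5a from untreated samples.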
